A study of Homo sapiens with 6 samples.

Results

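Histone lysine methyltransferases and demethylases were described in eHAP cells, a fully haploid human line made from the leukaemia-derived line HAP1, in which TFDP1 had been targeted with Cas9. The genes were chosen by symbol alone: every row of the authors' deposited table whose name begins with KDM, KMT or SETD and a digit, together with SETDB1, SETDB2, SUV39H1, SUV39H2, NSD1, EHMT1, EHMT2, DOT1L and the numbered PRDM genes. The rule matched 52 of the 15794 rows, 50 protein-coding genes and 2 antisense RNAs. EZH1 and EZH2 are not among them. RNA with a poly(A) tail was sequenced from 3 replicates given guides against TFDP1 (knockout) and 3 control replicates labelled wild-type with no knocked-out gene. Both groups were Cas9-expressing eHAP cells that received a guide plasmid with a puromycin-resistance gene, were selected from 24 to 72 h after transfection and were collected at 5 days. The guide of the control plasmid is not described. Each sample mixed 500000 eHAP cells with 10000 Drosophila S2 cells as a spike-in. The knockout samples are described as cells selected for the plasmid, with no step of cloning stated, so cells without a disrupted TFDP1 may be among them.

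Histone lysine methylation is written by methyltransferases, nearly all of which carry a SET domain (DOT1L is the exception), and removed by demethylases. The LSD enzymes are flavin-dependent amine oxidases, whereas the JmjC enzymes use iron, oxygen and 2-oxoglutarate. Methylation of lysine 4 of histone H3 (H3K4) marks active promoters and enhancers, H3K36 and H3K79 methylation marks transcribed genes, and H3K9, H3K27 and H4K20 methylation is known from silent or compacted chromatin. TFDP1 encodes DP1, the dimer partner through which most E2F factors bind DNA at genes of the cell cycle.

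Each gene carries one set of deposited values, namely the log2 fold change, the mean level as log2 CPM (reads scaled to a common library total), the likelihood ratio of the test, and its p-value before and after adjustment. Single replicates were not analysed here, so the spread between replicates cannot be shown for any gene, and the depth of each library is unknown. An approximate standard error (SE) of each log2 fold change was taken from the size of that change and the root of the deposited likelihood ratio, by which it is divided. TFDP1 itself (chromosome 13, 113584721 to 113641470, plus strand, GENCODE 29 on GRCh38) had a log2 fold change of 1.17 (approximate SE 0.032) at 226 CPM, and its deposited adjusted p was 1.08e-283. The numerator of the fold change is not stated, and a Cas9 indel need not lower the transcript it hits. Directions are therefore relative to TFDP1: a positive gene shares the sign of TFDP1, and whether that means higher in the control or in the knockout samples is not settled. A gene is said to pass where the authors' adjusted p is under 0.05. Of 20 blood cell markers listed as a check on the leukaemic origin of the line, 10 had a row in the authors' deposited table. Under 1 CPM lay 4 of these. The others were GATA2 (81.0 CPM), CEBPA (41.2), RUNX1 (18.1), KIT (15.3), ITGA2B (5.31) and TAL1 (1.06).

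Of the 52 genes, 19 passed on the positive side, 4 passed on the negative side and 29 did not pass in the authors' deposited table. Over all 15794 rows 17.3% passed as positive and 22.2% as negative, against 36.5% and 7.69% of these genes. In both directions together, 44.2% of them passed, close to the 39.5% of all rows. Their median log2 fold change was 0.10, beside -0.03 for all rows. The changes were small: the largest was 1.83-fold, and 4 of the 23 genes that passed reached 1.5-fold. KDM5B (-0.83) and KDM6B (-0.67) stood on the negative side among genes at moderate level, and KMT2C (0.60), KMT2A (0.53) and KDM1B (0.48) led the positive side, all as deposited log2 fold changes. The plot of fold change by role shows these genes, with the positive ones spread over writers and erasers of several marks.

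**Figure D1:**
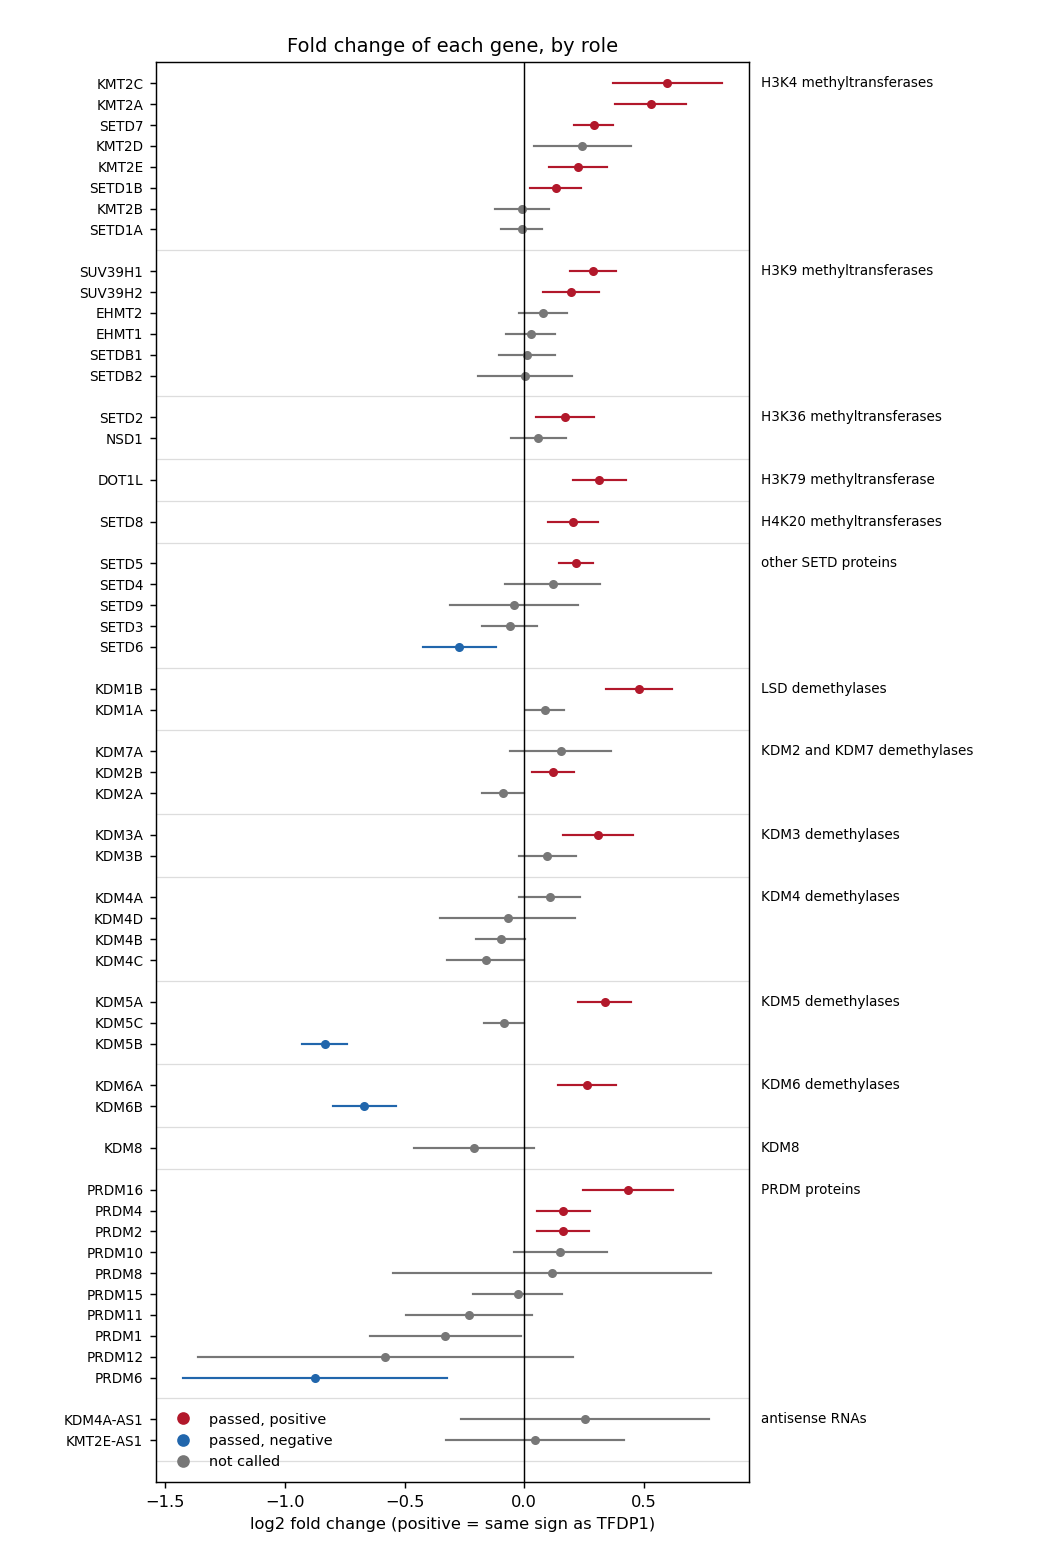
Log2 fold change of each of the 52 genes (horizontal axis, positive meaning the same sign as TFDP1), grouped by role. Points are the deposited values, bars are 1.96 approximate SE to either side, and colour gives the authors' test; KDM5B and KDM6B lie far to the left of their paralogues KDM5A and KDM6A.

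The shares were also read among rows at or above a cut in level and a cut in transcript length, which does not match their levels. Past the cut in level the members had a median of 107 CPM, against 68.6 CPM for all such rows. With the cut in length added these medians were 117 and 70.7 CPM. At or above the median level of all rows (23.5 CPM), 25.4% of 7897 rows passed as positive and 26.5% as negative (51.9% in all) in the authors' deposited table, and of the 35 histone methylation genes there, 18 (51.4%) were positive and 3 (8.57%) negative. Among the 17 below that level, 1 was positive (PRDM16) and 1 negative (PRDM6). Of 1711 rows at or above the median level with a longest transcript of at least 6000 bases, 54.6% passed in the authors' deposited table, 37.5% as positive and 17.2% as negative. In that class, 12 of 22 genes of histone methylation (54.5%) were positive and 2 (9.09%) negative. The contribution of transcript length to the counts was not tested.

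**Figure D2:**
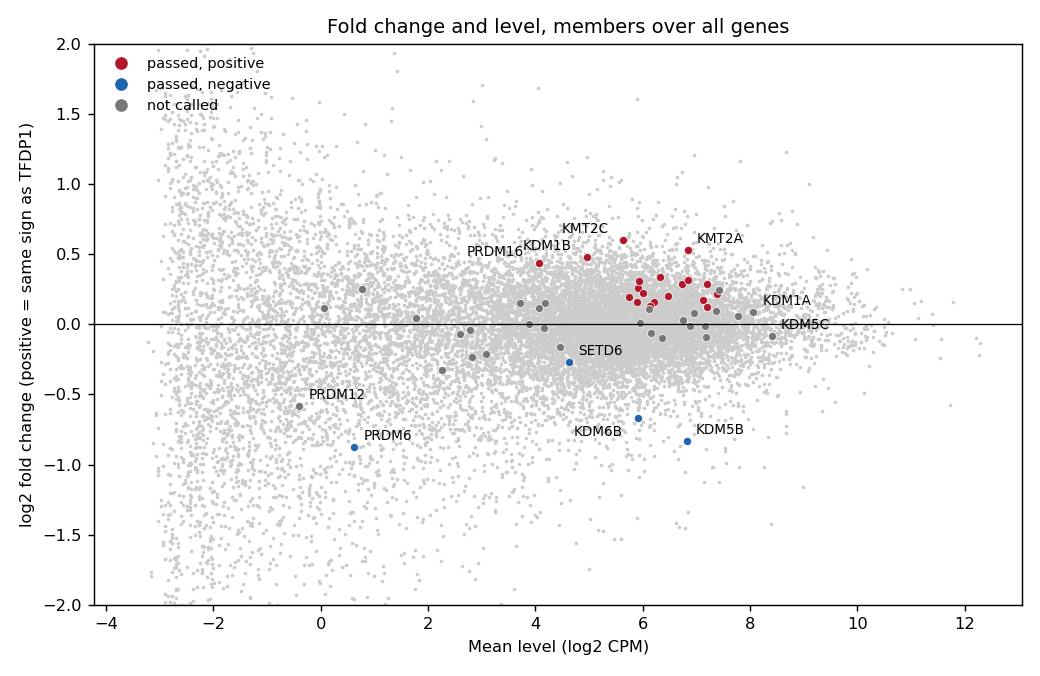
Deposited log2 fold change against mean level in log2 CPM for all rows (grey) and for the 52 genes (colour by the authors' test); 259 rows lie outside the vertical range of 2 to either side. KDM5B and KDM6B lie below most rows of their level, though other rows there are lower still, whereas PRDM6 and PRDM12 are scarce and lie among widely scattered rows.

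The 8 genes listed for H3K4 methylation gave 5 positive, 0 negative and 3 that did not pass, with a median deposited log2 fold change of 0.23. They have long transcripts and high CPM, which is not divided by length (medians of 8327 bases and 117 CPM). Of the 1711 rows at or above the median level with a transcript of at least 6000 bases, 37.5% passed as positive and 17.2% as negative. KMT2A, or MLL1, is the founding mammalian Trithorax methyltransferase and the gene rearranged in MLL leukaemia. Its deposited log2 fold change was 0.53 (approximate SE 0.076, 1.44-fold) at 115 CPM, with an adjusted p of 5.34e-11. SETD7, which monomethylates H3K4 and many non-histone proteins, had 0.29 (SE 0.042) at 148 CPM and a deposited adjusted p of 1.04e-10. KMT2C, which with KMT2D monomethylates H3K4 at enhancers, had the largest positive value, 0.60 (SE 0.12, 1.51-fold) at 49.6 CPM, with a deposited adjusted p of 2.46e-06. Parts of KMT2C have near-identical copies elsewhere in the genome, so its reads may be divided among them and its value is uncertain.

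KMT2D, the paralogue of KMT2C, had a deposited log2 fold change of 0.24 with an adjusted p of 0.0557 and did not pass. Its approximate 95% interval, 0.04 to 0.45, overlaps that of KMT2C, 0.37 to 0.83. KMT2E, whose SET domain is thought to be inactive, passed at 0.23, and SETD1B, a catalytic subunit of a COMPASS complex, at 0.13 (adjusted p = 0.0456, both deposited). SETD1A and KMT2B were each at -0.01 in the authors' deposited table, with intervals of -0.10 to 0.07 and -0.12 to 0.10. Their sign depends on the centring: both became positive, at 0.01 and 0.02, when all fold changes were re-centred on the median gene. Within the pairs KMT2A and KMT2B, and KMT2C and KMT2D, the differences of deposited log2 fold change were 0.54 (approximate SE 0.095) and 0.36 (0.16). SETD1A minus SETD1B was -0.14 (0.069).

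Among 6 methyltransferases of H3K9, the SUV39H pair passed (33.3%, beside 39.5% of all rows) and the other 4 did not. SUV39H1, which trimethylates H3K9 in pericentric heterochromatin, had a deposited log2 fold change of 0.29 (SE 0.049) at 107 CPM with an adjusted p of 4.94e-08. Its paralogue SUV39H2 had 0.20 (SE 0.060) at 54.0 CPM with a deposited adjusted p of 0.00471. SUV39H2 shares 6957 bases with the opposite-strand gene DCLRE1C, which was itself positive at 0.30 in the authors' deposited table. Use of strand in the counting is unstated, so reads of such partners cannot be told apart. Of the 52 members, 16 share bases with another gene that has a row, and not all of these overlaps are named here. EHMT1 (GLP) and EHMT2 (G9a), which together dimethylate H3K9 in euchromatin, were at 0.03 and 0.08, and SETDB1 and SETDB2 at 0.01 and 0.00, as deposited. The intervals of EHMT1 (-0.07 to 0.13), EHMT2 (-0.02 to 0.18) and SETDB1 (-0.11 to 0.13) all include 0.

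For the remaining sites, DOT1L, the H3K79 methyltransferase, had a deposited log2 fold change of 0.32 (SE 0.058) at 115 CPM with an adjusted p of 4.65e-07. It shares 320 bases with the opposite-strand gene AP3D1, which was negative at -0.23 in the authors' deposited table. DOT1L also shares 2495 bases with PLEKHJ1 on the opposite strand, which lay at 143 CPM and did not pass. SETD8, the older symbol of KMT5A, encodes the H4K20 monomethyltransferase whose protein is degraded in S phase. Its deposited log2 fold change was 0.21 (SE 0.054) at 89.4 CPM with an adjusted p of 6.68e-04. SETD2, which trimethylates H3K36 along transcribed genes, passed at 0.17 (SE 0.062) and 140 CPM (adjusted p = 0.0193, as deposited), and NSD1, which dimethylates H3K36, did not pass at 0.06 (interval -0.05 to 0.17).

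Several enzymes of the same families appear in the authors' deposited table under older symbols that the rule does not match. WHSC1, the older name of NSD2, had a log2 fold change of 0.52 (SE 0.040) at 321 CPM with a deposited adjusted p of 5.77e-36, and WHSC1L1 (NSD3) had 0.40 (SE 0.085, adjusted p = 1.69e-05). SUV420H1 (KMT5B), which adds further methyl groups to H4K20, passed at 0.19, and SUV420H2 (KMT5C) did not at -0.01, as deposited. NSD1 differed from WHSC1 by -0.46 (approximate SE 0.071). With these 4 rows added, a choice made after their values were seen, 22 of 56 genes were positive and 4 negative. Over all rows 17.3% passed as positive and 22.2% as negative.

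Of 5 other SETD proteins, 1 was positive and 1 negative, or 40% in all, close to the 39.5% of all rows. SETD5, a SET-domain protein mutated in intellectual disability, had a deposited log2 fold change of 0.22 (SE 0.037) at 167 CPM with an adjusted p of 4.20e-08. SETD6, which methylates the NF-kappaB subunit RelA, was negative at -0.27 (SE 0.078) and 24.7 CPM, with a deposited adjusted p of 0.00257. SETD6 shares 1231 bases with the opposite-strand gene CNOT1, which lay at 457 CPM and was positive at 0.30 in the authors' deposited table. SETD3, an actin histidine methyltransferase, SETD4 and SETD9 did not pass, with deposited values between -0.06 and 0.12.

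The 17 demethylase genes gave 5 positive, 2 negative and 10 that did not pass, with a median deposited log2 fold change of 0.09. The 18 methyltransferases of histone sites described above gave 10 positive and 0 negative, with a median of 0.18. That count depends on the genes taken: with the 5 other SETD proteins, 11 of 23 were positive and 1 negative, with a median of 0.13. In both directions together 55.6% of the 18 methyltransferases and 41.2% of the demethylases passed. Beside these stand 54.6% of the long-transcript rows at or above the median level and 39.5% of all rows. The 18 methyltransferases were also higher in CPM and longer, with medians of 111 CPM and 7400.5 bases against 69.4 CPM and 6096 bases. The difference between writers and erasers was not tested.

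KDM1B, or LSD2, removes H3K4 mono- and dimethylation and is needed for DNA methylation imprints in oocytes. Its deposited log2 fold change was 0.48 (SE 0.070, 1.4-fold) at 31.4 CPM with an adjusted p of 1.16e-10. KDM1A, or LSD1, the catalytic partner of CoREST, was more abundant at 267 CPM and had 0.09 (interval 0.01 to 0.17) with a deposited adjusted p of 0.0893. KDM1A minus KDM1B was -0.40 (approximate SE 0.081). KDM1A passed on the positive side, however, in each re-centred setting and with the trend on transcript length removed, with adjusted p from 1.72e-04 to 0.0177. Those values were adjusted by Benjamini-Hochberg over the rows analysed. The same adjustment of the deposited p gave 0.0770, against 0.0893 as deposited.

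Both KDM5 and KDM6 held a pair of paralogues that passed in opposite directions. KDM5B, or JARID1B, removes H3K4 trimethylation at promoters and lay at 113 CPM. It had a deposited log2 fold change of -0.83 (SE 0.048, 1.78-fold) with an adjusted p of 6.73e-65, the 66th smallest p of the table. KDM5A, or JARID1A, first found as a protein that binds RB, had 0.34 (SE 0.056) at 79.8 CPM with a deposited adjusted p of 2.55e-08. KDM5C, the X-linked member, did not pass at -0.08 (interval -0.17 to 0.00) and 338 CPM in the authors' deposited table. KDM5A minus KDM5B was 1.17 (approximate SE 0.074), the widest of the 20 paralogue pairs compared. The 20 pairs share genes, since every pairing within KDM4A to KDM4C, KDM5A to KDM5C and NSD1, WHSC1 and WHSC1L1 was taken. Some of them use the rows under older symbols, which lie outside the rule.

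KDM6B, or JMJD3, removes H3K27 trimethylation and is known as a gene induced by inflammatory signals. It had a deposited log2 fold change of -0.67 (SE 0.067, 1.59-fold) at 60.4 CPM with an adjusted p of 7.43e-22. KDM6A, or UTX, is an X-linked H3K27 demethylase and a subunit of the KMT2C and KMT2D complexes. At nearly the same level, 60.3 CPM, it had 0.26 (SE 0.061) with a deposited adjusted p of 1.25e-04. KDM6A minus KDM6B was 0.93 (approximate SE 0.091). Of the 20 pairs, 2 had calls in opposite directions, these and KDM5A with KDM5B, and both kept those calls under each centring and with the length trend removed. The median absolute difference over the pairs was 0.24.

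Of the remaining JmjC enzymes, KDM3A and KDM2B passed. KDM3A, an H3K9 demethylase induced by hypoxia, passed at 0.31 (SE 0.075) and 61.3 CPM (deposited adjusted p = 2.56e-04), and KDM3B did not at 0.10. KDM2B, which recruits a variant Polycomb complex to CpG islands, passed at 0.12 (SE 0.044) and 147 CPM (deposited adjusted p = 0.0226), whereas KDM2A was at -0.09 and KDM7A, at 13.2 CPM, was at 0.15. KDM2B shares 1527 bases with RNF34 on the opposite strand, which was negative at -0.23 in the authors' deposited table. None of the 4 KDM4 genes, demethylases of H3K9, passed. Their deposited values ran from -0.16 (KDM4C) to 0.11 (KDM4A), with adjusted p from 0.121 for KDM4C to 0.773 for KDM4D. At an unadjusted p under 0.05, KDM4C alone would have passed, with 0.0493 in the authors' deposited table. KDM8, at 8.47 CPM, was at -0.21 (interval -0.46 to 0.04).

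The PRDM genes encode zinc finger proteins with a PR domain related to the SET domain, and most act as DNA-binding regulators. Of 17 symbols listed, 10 had a row, of which 3 passed as positive and 1 as negative. In both directions together 40% of the 10 passed, close to the 39.5% of all rows. PRDM16, a regulator of brown fat and of haematopoietic stem cells, had a deposited log2 fold change of 0.44 (SE 0.096) at 16.7 CPM with an adjusted p of 3.88e-05. PRDM2, or RIZ1, an H3K9 methyltransferase, passed at 0.16 (SE 0.056) and 74.5 CPM with a deposited adjusted p of 0.0132, and PRDM4 passed at 0.16 as well. PRDM6 was negative at -0.88 (SE 0.28) with a deposited adjusted p of 0.00747, but at 1.54 CPM, so that few reads lay behind it. PRDM1, PRDM8, PRDM10, PRDM11, PRDM12 and PRDM15 did not pass, with deposited values from -0.58 (PRDM12, 0.757 CPM) to 0.15 (PRDM10). MECOM, which is PRDM3 by another name and falls outside the rule, was positive at 0.53 with a deposited adjusted p of 1.45e-13. The antisense RNAs KDM4A-AS1 (0.25) and KMT2E-AS1 (0.05) lay at 1.70 and 3.42 CPM in the authors' deposited table and did not pass. They share 5751 and 143 bases with KDM4A and KMT2E.

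Levels can be compared between genes only per length, and each CPM value was divided by the length of the longest GENCODE transcript in kilobases, which need not be the transcript the cells made. KDM1A stood first at 87.3 CPM per kb, followed by KDM5C at 55.5, SUV39H1 at 35.8, EHMT2 at 30.2 and SETD8 at 28.5. The H3K4 methyltransferases ran from 2.94 CPM per kb for KMT2C to 20.1 for SETD7. PRDM6 was lowest at 0.166. Within pairs, KDM1A exceeded KDM1B (8.23 CPM per kb), and KDM6A and KDM6B were close at 10.2 and 9.0. These levels are means over both groups, and no spread over samples can be given for their order.

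**Figure D3:**
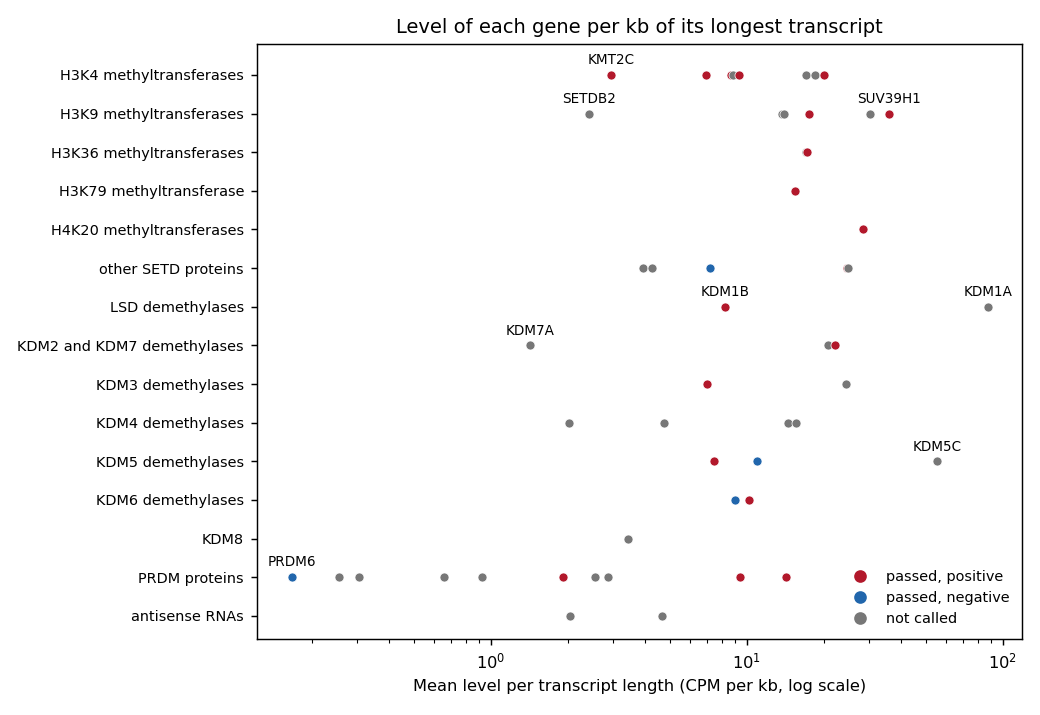
Mean level in CPM per kb of the longest transcript (log scale) of each gene, in rows by role and coloured by the authors' test. KDM1A and KDM5C are the most abundant per length, at 87.3 and 55.5, and most PRDM genes lie at the low end.

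The E2F family binds a core that can be written TTTNNCGC, where each N is C or G. It was searched on both strands in the 250 bases before each RefSeq start site (GRCh38.p14), together with its 7-letter form TTNNCGC, which every 8-letter match also holds. Of 52 members 48 had an entry. The 8-letter form was present at 1 of the 48, KDM1B, against 3.40% of all genes with an entry, and the 7-letter form at 8 of 48 (16.7%) against 13.0% of all genes. KMT2E and its antisense RNA KMT2E-AS1 are both among these 8, and 1 match lies before both starts. KMT2E-AS1 also has a match of its own. Of those 8 genes 5 passed the authors' test, where 39.5% of all rows and 51.9% of rows at or above the median level did, and nothing is read from that count. The sequences around the matches of the 5 are shown to let the letters be compared. Capitals mark the 7-letter matches, read on the plus strand of the chromosome, which is also the strand of all 5 genes.
KDM1B (chr6:18155172-18155252), 250 to 170 bases before the start: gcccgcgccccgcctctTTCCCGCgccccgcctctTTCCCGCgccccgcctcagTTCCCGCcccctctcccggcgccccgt
SETD8 (chr12:123384067-123384113), 65 to 19 bases before the start: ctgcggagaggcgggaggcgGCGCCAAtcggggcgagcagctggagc
KMT2E (chr7:105014130-105014176), 75 to 29 bases before the start: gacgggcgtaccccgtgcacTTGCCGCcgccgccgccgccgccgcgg
PRDM2 (chr1:13699976-13700022), 212 to 166 bases before the start: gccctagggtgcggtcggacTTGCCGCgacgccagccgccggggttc
SETD6 (chr16:58515287-58515333), 230 to 184 bases before the start: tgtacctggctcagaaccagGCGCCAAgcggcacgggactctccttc

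KDM1B held 3 matches in a repeated stretch, and the others 1 each, on the opposite strand in SETD8 and SETD6. The deposited log2 fold change was positive in KDM1B, SETD8, KMT2E and PRDM2 and negative in SETD6. The CHR element, TTNGAA with N as T or C, was found before a start site of 3 of 48 genes (PRDM1, PRDM2 and PRDM10), or 6.25%, against 17.2% of all genes. A match is a description of the letters only, and its absence says that they are not in this window.

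Partners of these enzymes were read from lists drawn up by complex membership, and their counts stand beside 17.3% positive and 22.2% negative over all rows, or 25.4% and 26.5% at or above the median level. Of 14 COMPASS subunits and KMT2 partners, 7 were positive, 2 negative and 5 did not pass, with a median deposited log2 fold change of 0.14. PSIP1, the chromatin tether of KMT2A with menin, was at 0.42 (adjusted p = 4.76e-20), and PAXIP1, a subunit of the KMT2C and KMT2D complexes, at 0.37, whereas CXXC1 (-0.16) and DPY30 (-0.20) were negative, as deposited. The 10 H3K9 readers and partners gave 2 positive and 1 negative, with the HP1 genes CBX1 (0.22) and CBX3 (0.15) positive and the EHMT partner WIZ negative (-0.20) in the authors' deposited table.

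Of 10 partners of LSD1, 1 was positive (RCOR3, 0.27) and 3 negative, with GSE1 at -0.27 and HMG20B at -0.24, as deposited. The 8 genes of DOT1L and elongation complexes gave 2 positive and 0 negative. MLLT6, a paralogue of the DOT1L cofactor MLLT10, was at 0.51 (adjusted p = 1.94e-25) and MLLT10 at 0.26 in the authors' deposited table. Of 16 further lysine methylation enzymes with a row, 7 were positive and 3 negative, with MECOM (0.53) and SMYD2 (0.43) on one side and HR and C14orf169 on the other. HR was at -2.07 in the authors' deposited table but at 0.810 CPM. C14orf169, the older symbol of the ribosomal oxygenase gene RIOX1, was at -0.23.

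Precision differed between genes of one level. For each gene the approximate SE was divided by the median over the 501 rows nearest to it in level. That ratio was 2.19 for KMT2D, 1.80 for KMT2C and 1.47 for KMT2A, the 3 highest ratios of the 52, and 0.770 for SETD5. KMT2D thus had a larger deposited log2 fold change than SETD5 (0.24 against 0.22) at a similar level, 172 and 167 CPM, and did not pass where SETD5 did. The 3 KMT2 transcripts are also the longest of the 52, at 19419, 16862 and 16628 bases.

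**Figure D4:**
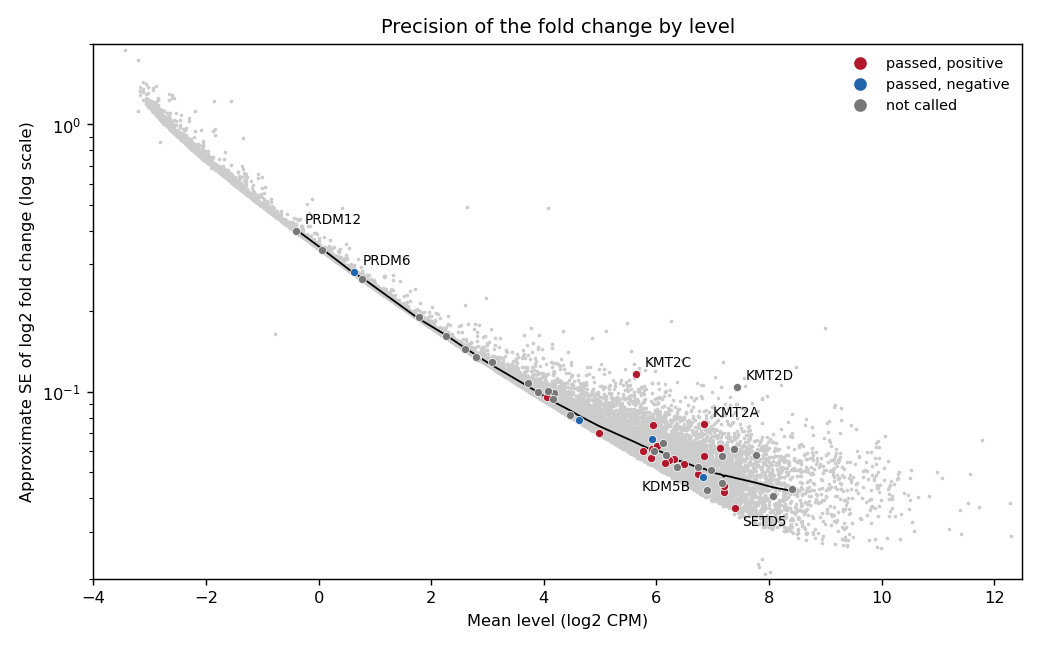
Approximate SE of the log2 fold change (log scale) against mean level for all rows (grey) and the 52 genes (colour by the authors' test), with the running median at the level of each gene (black line). KMT2D, KMT2C and KMT2A lie above the line, at 2.19, 1.80 and 1.47 times its height.

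Across the 52 genes the log2 fold change and the log2 transcript length had a Pearson r of 0.11 and a Spearman rho of 0.23, beside 0.05 and 0.12 across all 15277 rows with a length. At or above the median level, across 7871 rows, they were 0.18 and 0.22. These are descriptions across genes of the same libraries, which are not independent replicates. With the trend on length removed from the deposited fold changes by lowess, 15 of the 19 positive calls and all 4 negative calls were kept. The 4 lost were PRDM2 (adjusted p = 0.133), SETD2 (0.15), KDM2B (0.137) and SETD1B (0.323).

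**Figure D5:**
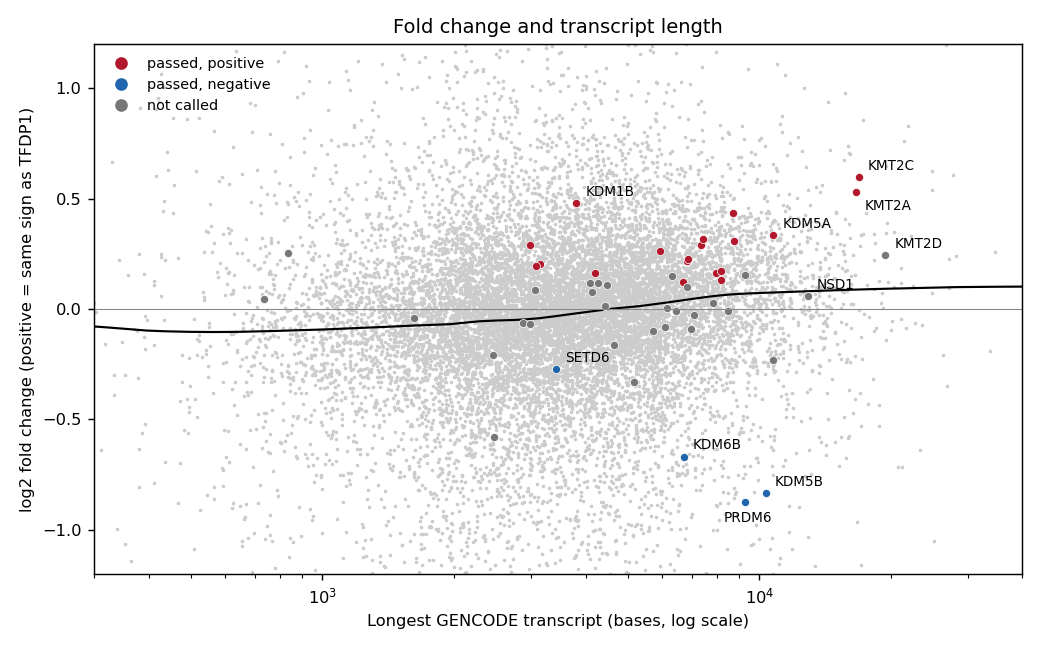
Log2 fold change against the length of the longest GENCODE transcript (log scale) for all rows (grey) and the 52 genes (colour by the authors' test), with the lowess trend of all rows (black line). The trend runs from -0.10 to 0.09 over the lengths of the 52 genes, and KMT2A, KMT2C, KDM1B, KDM5B and KDM6B lie well away from it.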

How the data were processed

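Poly(A) RNA of 6 samples, 3 per group, described as biological replicates per the labels' protocols, was analysed from the authors' deposited table of 1 comparison. Per the submitters' processing notes, HISAT2, featureCounts, Trimmomatic and edgeR were used, with builds dm6 and hg38. Tool versions, counting settings and whether scaling used human or spike-in reads are unstated. The log2 fold change, log2 CPM, the likelihood ratio (a score per gene), the p-value and the adjusted p were computed by the authors, per the file headers. All 15794 rows carry the hg38 prefix. Values per sample were not analysed here, so the only test across samples is the authors' own, and depth per sample is unknown.

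Genes passed at the authors' adjusted p under 0.05. For all 52 members, Benjamini-Hochberg adjustment over the 15794 rows analysed gave a smaller value than the deposited one. The deposited adjustment was therefore not made in that way over these rows alone, and the rows it covered are unstated. Approximate intervals are 1.96 SE to either side. The approximate SE of a difference between paralogues is the root of the summed squares of both gene SEs. It treats the genes as independent although they were measured in the same libraries. The members were matched by symbol, but the rule and the lists were set with earlier results of these data known. Within each role the genes that passed are named, with full values for the 3 with the smallest p, and in each partner list at most 2 per direction. Longest transcripts came from GENCODE 29, matched by symbol or synonym for 15277 rows (96.7%) and for all 52 members. Alternatives were thresholds of 0.01 and 0.1, a fold minimum of 1.2, Benjamini-Hochberg adjustment over the rows analysed, re-centring on the median gene or on the median of 79 ribosomal protein genes with z recomputed from the approximate SE, a lowess length trend (span 0.3), a minimum of 1 CPM, and antisense rows left out. The re-centring was tested on simulated data. Python 3.11.15, pandas 2.3.3, numpy 2.4.6, scipy 1.17.1, statsmodels 0.14.6 and matplotlib 3.10.9 were used.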

Additional observations from a re-analysis of the deposited data

How the results depend on the processing

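The count of positive genes stayed within 1.5 times of 19, from 14 at an adjusted p under 0.01 to 26 when re-centred on the ribosomal proteins, except with a minimum change of 1.2-fold, where it was 9. That of negative genes was 4 in every setting but the removal of the length trend, which gave 6 (KDM2A and KDM5C added). The median log2 fold change of 0.10 became 0.18 when re-centred on the ribosomal proteins, and lay between 0.09 and 0.13 in the other settings. Re-centring shifted all values by 0.03 (median gene) or 0.08 (ribosomal proteins), and the share of positive calls among all rows that passed went from 43.9% to 49.9% or 62.3%. All 19 positive and 4 negative calls were kept in both. Genes near 0, none of which passed before or after, changed sign: on the ribosomal centring SETD3 (0.0206), KDM4D (0.0137), SETD9 (0.0395), PRDM15 (0.0545), SETD1A (0.0709) and KMT2B (0.0717), on the median gene SETD1A (0.0145) and KMT2B (0.0152), and with the length trend removed NSD1 (-0.0212), EHMT1 (-0.0300), SETDB2 (-0.0268) and SETD9 (0.0325). KMT2D passed under both re-centrings and under Benjamini-Hochberg adjustment over the rows analysed (adjusted p = 0.0477). No replicate could be left out, and no other count tool or filter run, since values per sample were not analysed here. No paired analysis was possible because the table has no column per sample. Depth limits the scarce PRDM genes most: at 1.54 CPM the approximate SE of PRDM6 was 0.28.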

Other observations

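Across all rows at or above the median level, the share that passed as positive in the authors' deposited table was 13.3% for transcripts up to 2000 bases, 28.4% from 4000 to 6000, 40.9% from 8000 to 12000 and 35.3% above 12000 (173 rows). The share that passed as negative was 36.3%, 24.0%, 15.1% and 17.3% in the same classes. The median ratio of the approximate SE to that of rows of the same level was 1.06 from 8000 to 12000 bases and 1.09 above 12000. The spread within these classes was not computed.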
